A study of Homo sapiens with 6 samples.

Results

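Transcripts of 10 genes of selective autophagy, called the members here, were followed in RKO cells: the 6 human ATG8 genes MAP1LC3A, MAP1LC3B, MAP1LC3C, GABARAP, GABARAPL1 and GABARAPL2, and the 4 receptor genes SQSTM1, NBR1, OPTN and CALCOCO2. They were taken by symbol, through their Ensembl identifiers in the GENCODE annotation, from a table of 58735 genes, and all 10 had a row. RKO is a human colorectal carcinoma line. The study compared cells treated with EZA, an agent whose full name, dose and time the labels do not state, with cells given DMSO, the solvent. Each of the 2 groups held 3 libraries of poly(A) RNA, which the design text calls biological replicates. Both groups are the same single line, and whether the replicates were separate cultures is not stated. The members were not picked by a threshold on any value, but the set was proposed when results of this same contrast were known. Their fold changes and adjusted p-values are therefore a description taken from the fit over all genes, and their count supports nothing about the family as a whole.

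ATG8 proteins are small ubiquitin-like proteins that are attached to the lipid phosphatidylethanolamine on the growing autophagosome. The protease ATG4 first cuts each of them after a glycine near its C-terminus, and the enzymes ATG7 and ATG3 then pass that glycine to the lipid. Receptors such as the SQSTM1 product p62 bind both cargo, often marked with ubiquitin, and ATG8 on the membrane, and p62 is itself degraded in the process. Transcript levels therefore say nothing by themselves about the amount of these proteins or about autophagic flux.

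MAP1LC3C fell in EZA, while MAP1LC3B, GABARAPL1, SQSTM1 and CALCOCO2 rose. In these bulk libraries a change in the share of cells that express a gene and a change in RNA per cell cannot be told apart. The mean of MAP1LC3C went from 339 to 121 CPM (counts scaled to the size of the library), and that of SQSTM1 from 365 to 820.2 CPM. Of the 9 members with enough counts to be tested, 5 were called at an edgeR adjusted p below 0.05, 4 of them higher and 1 lower, and 1 member, MAP1LC3A, was too low to test. Of all 13503 genes tested 17.7% were called, 9.89% higher and 7.82% lower. Scaling by library size alone left the members' calls at 4 higher and 1 lower, but split those of all genes into 1059 higher and 1270 lower, against 1336 and 1056. GABARAPL2, NBR1, OPTN and GABARAP were not called. Only SQSTM1 and MAP1LC3C met the study's own threshold (an absolute log2 fold change of 1 or more and, before adjustment, p under 0.05), which 5.73% of all genes tested met, 3.77% as higher and 1.96% as lower. The fall of MAP1LC3C was called in each of 18 alternative analyses, 1 of which, summing MAP1LC3B with a close copy, left MAP1LC3C counts as they were. By contrast, all 4 rises lost their call when any single DMSO library was left out. Over all genes tested the share called higher fell as well, to 1.15%, 3.54% and 1.31% without DMSO replicate 1, 2 and 3. The share called lower fell to 0.451%, 2.17% and 0.529%.

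Library totals ran from 14070611 to 18840954 counts. EZA replicate 3 stood apart: its log2 CPM correlated across genes with those of the other EZA libraries at 0.965 to 0.967, against 0.993 between EZA replicates 1 and 2, and mitochondrial genes took 0.203% of its counts, against 3.68% to 5.02% in the other 5 libraries. What part this library's condition has in the members' values was not tested, and values without it are given beside them. Among 11 epithelial and colon markers, KRT8, KRT18, EPCAM and CDX2 were expressed highly enough to be tested and none was called, while CDH1, CDX1 and MUC2 had no counts at all and KRT19, KRT20, LGALS4 and VIL1 had under 10. Of 10 markers of blood, vessel, connective tissue and liver cells, 4 had no counts, and CD68 alone was tested, with up to 2.29 CPM in any library.

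**Figure D1:**
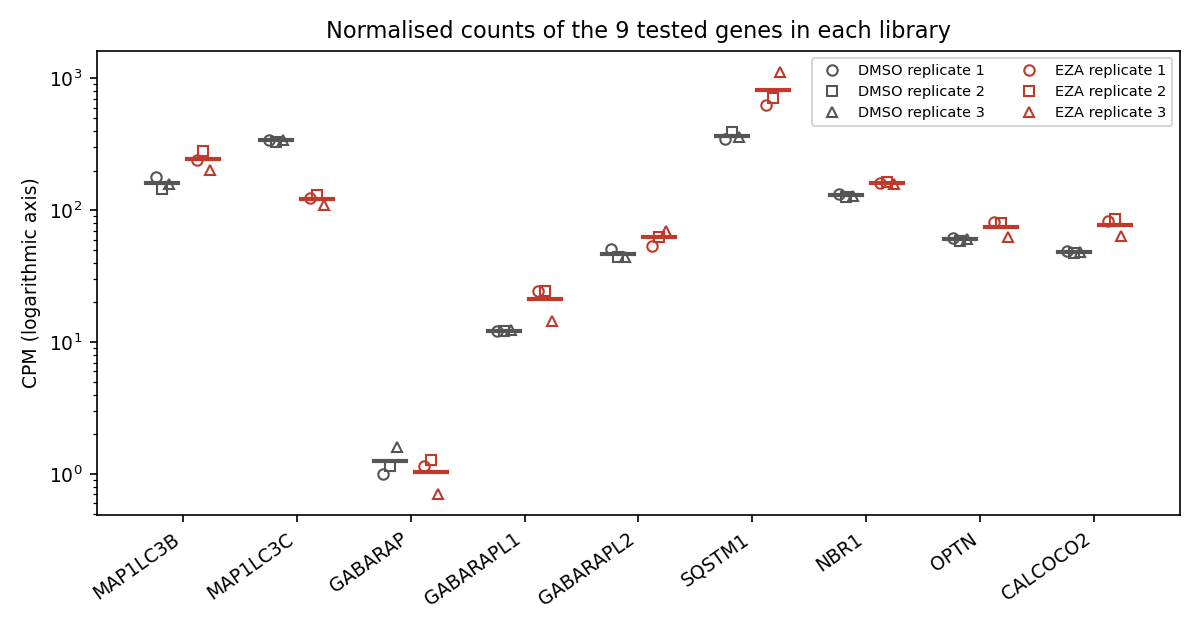
Normalised counts (CPM, logarithmic axis) of the 9 tested members in each library, with an open symbol per replicate and a bar for the group mean (n = 3 each). MAP1LC3C lies at 331 to 343 CPM in DMSO and at 109 to 131 CPM in EZA, and SQSTM1 at 344 to 391 and 634 to 1121 CPM.

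The ends of the coding sequences of the 6 ATG8 genes are shown because MAP1LC3C, the member that fell, carries the longest stretch after the glycine. Each sequence is the coding strand of the main transcript in GENCODE 44 on GRCh38, from 5 codons before the glycine codon to the stop codon, with the codon of the glycine after which ATG4 cuts in capitals.
MAP1LC3A: tcccaggaaaccttcGGCttctga
MAP1LC3B: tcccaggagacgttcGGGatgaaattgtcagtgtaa
MAP1LC3C: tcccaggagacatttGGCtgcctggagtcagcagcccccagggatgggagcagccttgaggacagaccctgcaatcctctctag
GABARAP: gacgaaagtgtctacGGTctgtga
GABARAPL1: gatgagagtgtctatGGGaaatga
GABARAPL2: ggagagaacacttttGGCttctga
MAP1LC3C holds 21 codons between the glycine and the stop, at chr1:241996163-241996246 on the minus strand, inside 1 exon. MAP1LC3B holds 5 such codons (chr16:87403062-87403097, plus strand), and each of the other 4 genes holds 1. In the coding sequence MAP1LC3C shares 65.5% of aligned bases with MAP1LC3B and 68.9% with MAP1LC3A. It has no exon in common with another gene of GENCODE 44, but the annotation used for counting is not stated.

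MAP1LC3C (ENSG00000197769, chromosome 1, 241995490 to 241999098, GRCh38) encodes the LC3 protein that is known to bind the receptor NDP52, the product of CALCOCO2, in defence against bacteria. It had 343, 331 and 343 CPM in DMSO replicates 1 to 3 and 125, 131 and 109 CPM in EZA replicates 1 to 3. The highest EZA library was well below the lowest DMSO library, and EZA replicate 3 was the lowest of all. The log2 fold change was -1.48 ± 0.12 (SE; edgeR adjusted p = 4.02e-04), or 0.358 times the DMSO level. Without EZA replicate 3 it was -1.41 (adjusted p = 1.11e-13).

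The other LC3 gene with substantial counts moved the opposite way. MAP1LC3B (ENSG00000140941, chromosome 16, 87383953 to 87404779) encodes the LC3 protein most used as an autophagosome marker. It had 178, 146 and 158 CPM in DMSO and 243, 283 and 204 CPM in EZA. All EZA libraries lay above all DMSO libraries, with the smallest gap at EZA replicate 3. The log2 fold change was 0.60 ± 0.15 (SE; edgeR adjusted p = 0.0311), and 0.71 ± 0.11 without EZA replicate 3 (adjusted p = 1.67e-06). The call was lost without any single DMSO library or without EZA replicate 1 or 2, with an adjusted p of up to 0.141. It was also lost, narrowly, after correction of each library for GC content and transcript length (0.0500). MAP1LC3B2, a retrogene copy on chromosome 12, shares 99.5% of its aligned coding bases with MAP1LC3B, and reads may have been split between them. The copy was counted 206 times over the DMSO group and 396 times over the EZA group, and with both genes summed the log2 fold change was 0.61 (adjusted p = 0.0288).

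MAP1LC3A, the third LC3 gene, had 1 count in DMSO replicate 3, 1 count in EZA replicate 3 and 0 in the other 4 libraries, so no fold change is given.

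Within each library the log2 ratio of MAP1LC3C to MAP1LC3B counts was 0.95, 1.18 and 1.12 in DMSO and -0.96, -1.12 and -0.90 in EZA. This ratio does not depend on the scaling between libraries. Counts of MAP1LC3C were above those of MAP1LC3B in all 3 DMSO libraries and below them in all 3 EZA libraries. Its mean differed by -2.07 between the groups, which is larger than the spread among the libraries of either group.

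The GABARAP branch of the family serves mainly the later steps of autophagosome growth and closure. GABARAPL1 (ENSG00000139112, chromosome 12, 10212458 to 10223128) had 12.1, 12.1 and 12.4 CPM in DMSO and 24.3, 24.5 and 14.5 CPM in EZA. EZA replicates 1 and 2 were nearly equal, and EZA replicate 3 was close to the DMSO libraries. The log2 fold change was 0.79 ± 0.21 (SE; edgeR adjusted p = 0.0349), and 1.00 ± 0.14 without EZA replicate 3. The call was lost without any DMSO library or without EZA replicate 1 or 2, with an adjusted p of up to 0.142. GABARAPL2 (ENSG00000034713, chromosome 16, 75566375 to 75577881), also called GATE-16, had 50.7, 44.3 and 44.5 CPM in DMSO and 53.7, 62.9 and 70.0 CPM in EZA. Here EZA replicate 3 was the highest library and EZA replicate 1 lay just above the DMSO range. The gene was not called (log2 fold change 0.42 ± 0.14, SE; edgeR adjusted p = 0.0712), and was called without EZA replicate 3 at 0.33 (adjusted p = 0.0251) and after correction for GC content and length at 0.59 (adjusted p = 0.0331).

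GABARAP (ENSG00000170296, chromosome 17, 7240008 to 7242449), the founding member of that branch, was counted only 16, 18 and 25 times in DMSO and 18, 23 and 10 times in EZA. The groups overlapped (log2 fold change -0.25 ± 0.35, SE; edgeR adjusted p = 0.655). Without EZA replicate 3 the log2 fold change of GABARAP was -0.04 (edgeR adjusted p = 0.945). A readthrough gene on the same strand, ENSG00000262526, shares 52.4% of the bases of its main transcript and was itself counted 0 times, and with a second gene on the other strand 68.2% of that transcript is shared. The handling of reads in shared exons is not stated, so these values cannot be taken as the level of GABARAP mRNA.

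**Figure D2:**
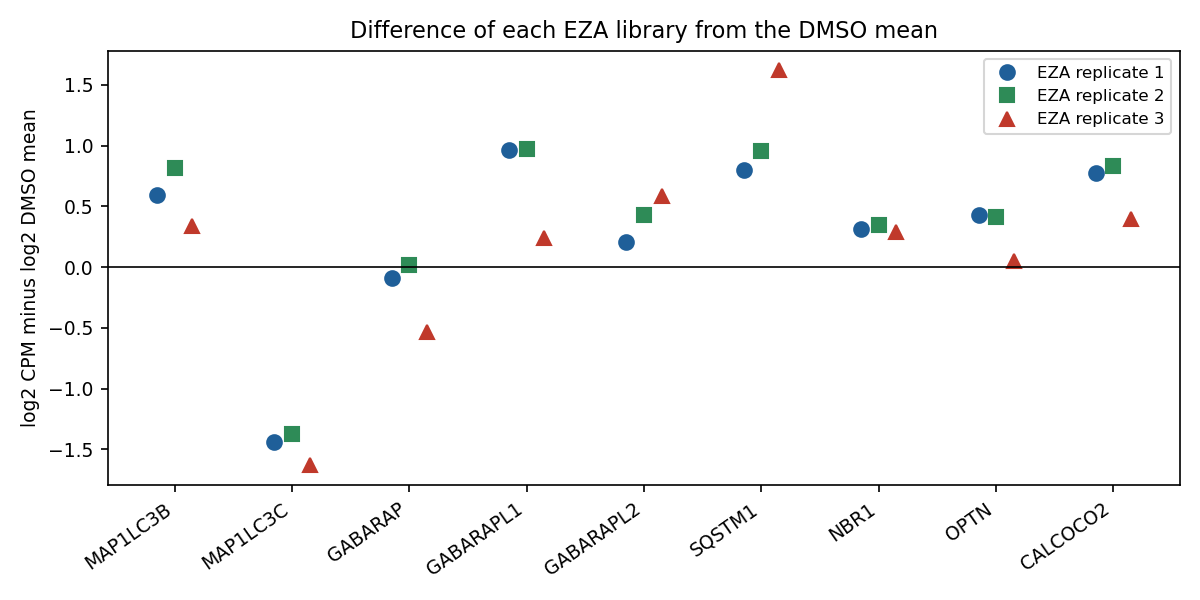
For the 9 tested members, the vertical axis gives log2 CPM of a single EZA library minus log2 of the DMSO mean, with 1 symbol per EZA replicate. For MAP1LC3C all 3 libraries lie between -1.63 and -1.37, for NBR1 between 0.29 and 0.35, while for SQSTM1 EZA replicate 3 lies at 1.62 against 0.79 and 0.95, and for GABARAPL1 at 0.24 against 0.96 and 0.98.

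Levels of different genes were compared per length, with the FPKM that the authors deposited. In DMSO MAP1LC3C had by far the highest FPKM of the ATG8 genes as counted, at 281 ± 4.42 (SD, n = 3). This placed it at rank 103 of all 58735 genes. MAP1LC3B followed with 29.6 ± 2.93 FPKM, GABARAPL2 with 15.04 ± 1.18, GABARAPL1 with 2.93 ± 0.0237 and GABARAP with 0.540 ± 0.132. In EZA the order was the same, and no neighbours in it overlapped in either group: MAP1LC3C was at 102 ± 10.3 FPKM, MAP1LC3B at 45.4 ± 7.97, GABARAPL2 at 20.3 ± 2.62, GABARAPL1 at 5.12 ± 1.42 and GABARAP at 0.455 ± 0.133. The place of GABARAP in this order, and so that of MAP1LC3C above it, is subject to the overlap described above.

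The FPKM of all 6 ATG8 genes summed to 337, 321 and 329.9 in DMSO and to 173, 192 and 154 in EZA. Without MAP1LC3C the remaining ATG8 genes summed to 48.2 ± 3.98 FPKM in DMSO and 71.2 ± 8.69 in EZA (SD, n = 3 each). As counted, the family total was therefore lower and the rest of the family higher in every EZA library. These sums and the shares below include GABARAP and are subject to the overlap described for it above. MAP1LC3C made up 84.4%, 86.0% and 85.8% of the summed ATG8 FPKM in DMSO and 60.2%, 57.8% and 58.6% in EZA. MAP1LC3B made up 8.99% ± 0.677 in DMSO and 26.1% ± 1.79 in EZA, and GABARAPL2 4.56% ± 0.273 and 11.9% ± 2.43. With counts divided by the longest annotated transcript instead, MAP1LC3C made up 78.6% and 47.3%. In EZA replicate 3 the share of MAP1LC3C lay between those of the other EZA libraries, while GABARAPL2 was higher there, at 14.6% against 10.1% and 10.8%.

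**Figure D3:**
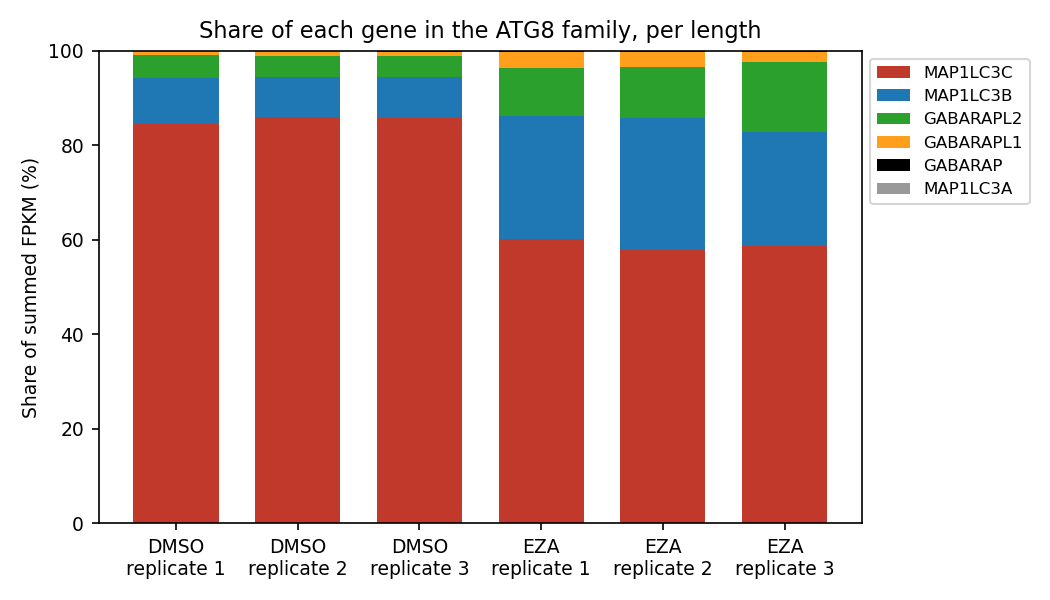
Each bar is 1 library and adds to 100% of the summed FPKM of the 6 ATG8 genes. MAP1LC3C takes 84.4% to 86.0% of the bar in the DMSO libraries and 57.8% to 60.2% in the EZA libraries, and the shares of GABARAP and MAP1LC3A are too small to be seen. All shares are subject to the overlap described for GABARAP.

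Among the receptors, SQSTM1 (ENSG00000161011, chromosome 5, 179806398 to 179838078) encodes p62, which gathers ubiquitin-marked cargo into condensates and also binds KEAP1, the adaptor that marks the transcription factor NRF2 for destruction. SQSTM1 had 344, 391 and 360.1 CPM in DMSO and 634, 706 and 1121 CPM in EZA. All EZA libraries were above all DMSO libraries, and EZA replicate 3 was far above the other 2. The log2 fold change was 1.17 ± 0.22 (SE; edgeR adjusted p = 0.0115), or 2.25-fold. It was 0.88 ± 0.10 without EZA replicate 3, and 0.63 ± 0.06 (adjusted p = 1.45e-07) after correction for GC content and length as well. The call was lost without DMSO replicate 1, 2 or 3, with adjusted p-values of up to 0.0825. On the opposite strand the exons of MRNIP cover 55.7% of the main SQSTM1 transcript, and the libraries do not mark strand. MRNIP was counted 1420 times against 55873 for SQSTM1 and was not called (log2 fold change 0.36 ± 0.16, SE; edgeR adjusted p = 0.155). MGAT4B, also on the opposite strand, shares 105 exon bases with SQSTM1, none of them in its main transcript, and rose by 0.87 ± 0.18 (adjusted p = 0.0169).

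CALCOCO2 (ENSG00000136436, chromosome 17, 48831018 to 48866522) encodes NDP52, a receptor for bacteria and damaged mitochondria. It had 48.7, 47.2 and 48.1 CPM in DMSO and 82.6, 85.8 and 63.3 CPM in EZA. The DMSO libraries were nearly equal, and EZA replicate 3 was the nearest to them. The log2 fold change was 0.69 ± 0.14 (SE; edgeR adjusted p = 0.0174), and 0.81 ± 0.11 without EZA replicate 3. This call was lost without DMSO replicate 1, 2 or 3 (adjusted p of up to 0.0966).

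The remaining receptors were not called in the fit reported. NBR1 (ENSG00000188554, chromosome 17, 43170481 to 43211689), an older relative of p62 that works beside it, had 134, 125 and 129 CPM in DMSO and 161, 165 and 158 CPM in EZA. These groups did not overlap, and the 3 EZA libraries were close together (log2 fold change 0.32 ± 0.11, SE; edgeR adjusted p = 0.0745). OPTN (ENSG00000123240, chromosome 10, 13099449 to 13138308) encodes optineurin, a receptor for mitochondria that the kinase TBK1 activates. It had 61.6, 58.4 and 60.7 CPM in DMSO and 81.4, 80.5 and 62.4 CPM in EZA, with EZA replicate 3 just above the DMSO range (log2 fold change 0.31 ± 0.14, SE; edgeR adjusted p = 0.147). Without EZA replicate 3 both were called, NBR1 at 0.33 ± 0.10 (adjusted p = 0.0102) and OPTN at 0.43 ± 0.11 (adjusted p = 0.00198). With all 6 libraries and correction for GC content and length, NBR1 was called at 0.45 (adjusted p = 0.0163) and OPTN at 0.42 (adjusted p = 0.0442).

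Per length, SQSTM1 was the most abundant of the 4 receptor transcripts in every library, with 46.8 ± 3.21 FPKM in DMSO and 105.9 ± 33.1 in EZA (SD, n = 3 each). NBR1 came next with 15.1 ± 0.439 and 19.0 ± 0.622 FPKM, then OPTN with 11.5 ± 0.269 and 14.4 ± 2.17, and CALCOCO2 with 5.65 ± 0.0752 and 9.18 ± 1.53. Neighbours in this order did not overlap within either group. SQSTM1 made up 57.1%, 61.5% and 58.8% of the summed receptor FPKM in DMSO and 64.8%, 66.9% and 79.1% in EZA. The summed receptor FPKM was 79.0 ± 2.49 in DMSO and 149 ± 29.2 in EZA. The level of SQSTM1, its share and this sum are subject to the overlap with MRNIP described above. How reads in shared exons were handled is not stated.

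All 4 receptors and 3 of the 5 tested ATG8 genes were higher in each EZA library than in any DMSO library, and MAP1LC3C was lower in each. Over all genes tested, groups did not overlap in 42.7%, 21.0% as higher and 21.7% as lower. The median log2 fold change was 0.42 over the 9 tested members and -0.01 over all genes tested.

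**Figure D4:**
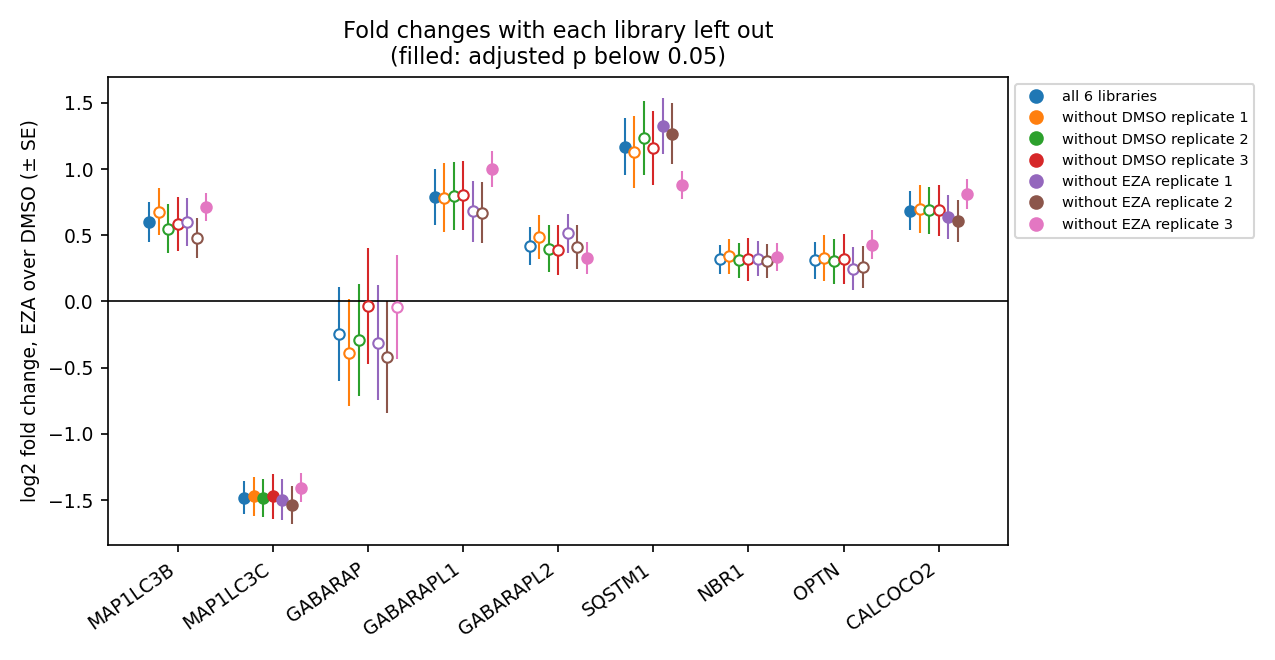
Log2 fold changes (EZA over DMSO, with SE as whiskers) of the 9 tested members with all 6 libraries and with each library left out in turn; filled points have an edgeR adjusted p below 0.05. MAP1LC3C is filled throughout, from -1.53 to -1.41, and 8 of the 9 members are filled without EZA replicate 3, against MAP1LC3C alone without any 1 of the DMSO libraries. Of all genes tested, 19.1% were called higher and 19.2% lower without EZA replicate 3. Without a DMSO library 1.15% to 3.54% were called higher and 0.451% to 2.17% lower.

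The stretches around gene starts were searched for 3 short motifs, since members moved in both directions. RefSeq windows from 250 bases before to 50 after a start (GRCh38) were found for 9 members, 13 windows in all, and both strands were read. CACGTG, the core of the CLEAR element bound by TFEB and its relatives, was in 0 of the 13 windows and in 7.26% of all 35116 windows. TGACNNNGC, the core of the antioxidant response element bound by NRF2, was in 2 windows and in 13.3% of all, and TGATGNAA, the core of the element bound by ATF4 with C/EBP factors, was in 1 window and in 3.62% of all. The windows are shown on the strand of each gene with the match in capitals.
MAP1LC3B, TGACNNNGC: gcgagtcaccTGACCAGGCtgcgggctga
CALCOCO2, TGACNNNGC on the reverse strand: cgctcctgggGCCCGGTCAcctgaacact
MAP1LC3C, TGATGNAA on the reverse strand: gcgattccatTTCCATCAgaactgacct
These matches lie 46, 129 and 116 bases before the start in RefSeq, within chr16:87392280-87392308, chr17:48830896-48830924 and chr1:241999197-241999224. For MAP1LC3B that start lies inside the gene as GENCODE draws it, and the stretch shown overlaps an annotated exon of MAP1LC3B itself.

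A longer stretch, 2000 bases before the start of each main transcript on GRCh38, was searched for TGACTCAGC. This is the core TGACNNNGC with its open bases set, not a longer element, and it was chosen after the values were seen. It was present in 1 of 10 members, SQSTM1, and in 2.56% of 19061 genes. SQSTM1 held it at 1320 and 352 bases before the start, both on the reverse strand. These matches lie upstream of the main transcript but inside the gene as GENCODE draws it, in no annotated exon. They are shown because SQSTM1 was the only member with a match.
SQSTM1, chr5:179819575-179819603: cgcctgggctGCTGAGTCAcgcttggcca
SQSTM1, chr5:179820543-179820571: tgaggatattGCTGAGTCAtggccaggcc
A match describes the letters in these windows, and binding was not measured.

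Other genes of the pathway were read from 6 lists of 90 genes, 89 of them tested. Of these 24 rose (27.0%) and 3 fell (3.37%) in EZA, beside 9.89% and 7.82% of all genes tested, with a median log2 fold change of 0.14 beside -0.01. The counts of the single lists below are to be read beside the same shares. The number depended on single libraries: without DMSO replicate 1 or 3 only 5 rose and 0 fell, and without DMSO replicate 2 these were 12 and 1. Without EZA replicate 1 they were 15 and 2, without EZA replicate 2 they were 19 and 2, and without EZA replicate 3 they were 36 and 7. After correction for GC content and length 23 rose and 1 fell, beside 6.72% and 4.99% of all genes tested. The shares over all genes moved too, to 1.15% higher and 0.451% lower without DMSO replicate 1, for example, and to 19.1% and 19.2% without EZA replicate 3.

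Of 11 tested genes for the enzymes that process and attach ATG8, 1 rose and 0 fell, with a median log2 fold change of -0.07, which was 0.03 after correction for GC content and length. The gene called was ATG4D, 1 of the 4 ATG4 proteases, with 31.6 CPM in DMSO and 45.4 CPM in EZA (log2 fold change 0.52 ± 0.14, SE; edgeR adjusted p = 0.0355). No gene of this list was called when any library other than EZA replicate 3 was left out, and 4 were called without EZA replicate 3. ATG4A, ATG4B and ATG4C had log2 fold changes of -0.13, 0.27 and -0.37, with adjusted p-values of 0.680, 0.168 and 0.174.

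Of 20 genes of autophagosome initiation and nucleation 7 rose and 1 fell, with a median log2 fold change of 0.27. ZFYVE1, whose product DFCP1 marks the site where autophagosomes form, went from 31.1 to 61.6 CPM (log2 fold change 0.99 ± 0.14, SE; edgeR adjusted p = 0.00445). WIPI1, which binds the lipid PI3P on the growing membrane, and ATG2A, which transfers lipids to it, rose by 1.01 ± 0.18 and 1.05 ± 0.23. PIK3R4, a subunit of the lipid kinase complex that makes PI3P, fell from 60.4 to 38.1 CPM.

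Of 21 other autophagy receptors 4 rose and 2 fell, with a median of 0.14. CALCOCO1, a relative of CALCOCO2 that serves turnover of the endoplasmic reticulum, went from 21.0 to 54.2 CPM (log2 fold change 1.36 ± 0.16, SE; edgeR adjusted p = 0.00263). TOLLIP and RETREG2 rose by 0.94 ± 0.17 and 0.54 ± 0.12. SEC62, a part of the protein translocation machinery that is also a receptor for the endoplasmic reticulum, and NUFIP1, a receptor for ribosomes, fell by 0.76 and 0.65 on the log2 scale. After correction for GC content and length 4 genes of this list rose and 0 fell, so both of these calls were lost. TAX1BP1, the other paralog of CALCOCO2, was not called, with means of 71.9 and 77.3 CPM (adjusted p = 0.654).

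Of 16 genes of autophagosome transport and fusion 5 rose and 0 fell, with a median of 0.17. PLEKHM1, an adaptor that binds ATG8 and the tethering complex HOPS, went from 64.2 to 128 CPM (log2 fold change 0.99 ± 0.12, SE; edgeR adjusted p = 0.00317). VPS16 and VPS39, subunits of HOPS, rose by 0.75 ± 0.13 and 0.53 ± 0.14.

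Of 11 tested partners and kinases of the receptors 2 rose and 0 fell, with a median of 0.10. After that correction 1 rose. Those called without it were PINK1, the kinase that marks damaged mitochondria, at 0.92 ± 0.16, and KEAP1, the NRF2 adaptor bound by p62, at 0.43 ± 0.11 (SE; edgeR adjusted p = 0.00902 and 0.0354). NFE2L2, the gene of NRF2, was not called, with means of 48.2 and 39.3 CPM (adjusted p = 0.369).

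Of 11 transcription factors known to act on ATG8 or receptor genes 5 rose and 0 fell, with a median of 0.57. After correction for GC content and length 4 rose, and the median was 0.19. ATF4 and DDIT3, factors of the integrated stress response, had log2 fold changes of 1.92 ± 0.15 and 1.81 ± 0.21 (SE; edgeR adjusted p = 3.39e-04 and 0.00228). TFE3, a relative of TFEB that binds the CLEAR element, rose from 99.3 to 178 CPM. TFEB itself, with means of 4.04 and 5.96 CPM, was not called (adjusted p = 0.0846).

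**Figure D5:**
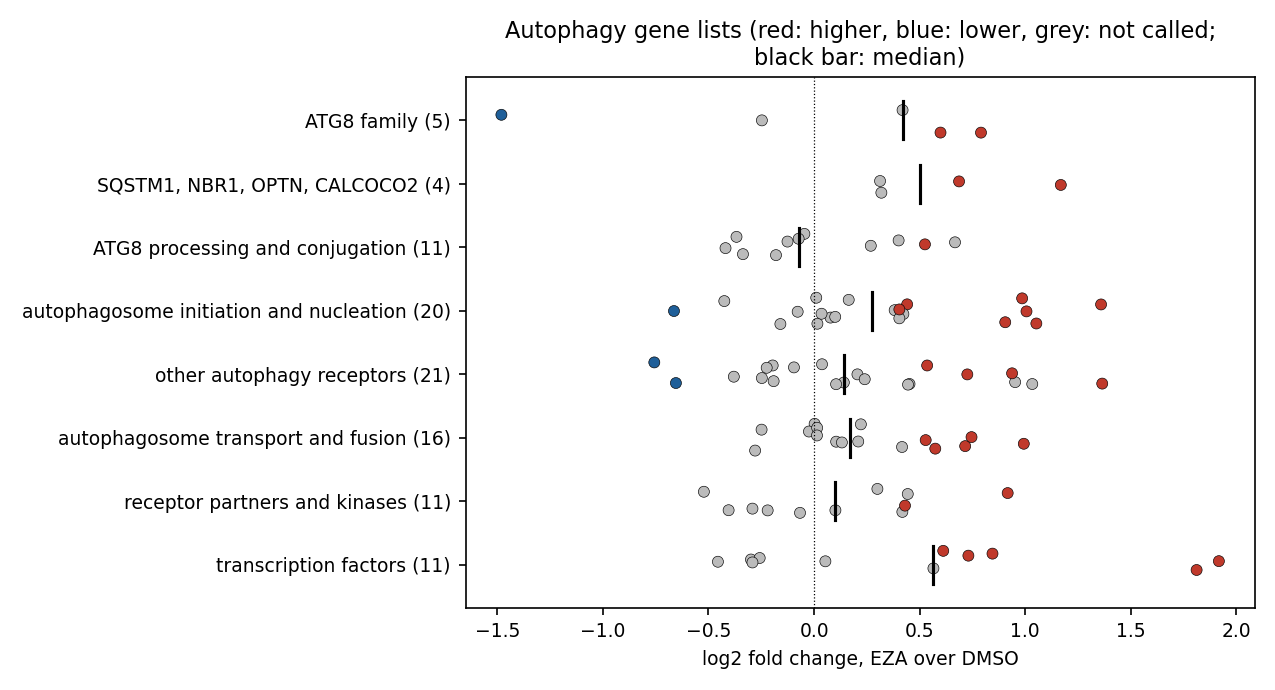
Log2 fold change, EZA over DMSO, of each tested gene in the ATG8 family, the 4 receptors and the 6 other lists, with the number of tested genes in parentheses, genes called higher in red and lower in blue, and the list median as a black bar. The medians lie between -0.07 and 0.57, and MAP1LC3C, at -1.48, lies furthest to the left.

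The genes most like SQSTM1 and MAP1LC3C across the 6 libraries, by Pearson correlation of log2 CPM among 8990 other protein-coding genes, are given as a description. For SQSTM1 they were TMEM219, LLGL2, HOOK2, MAPK12 and ALDH2, with r from 0.998 to 0.999. For MAP1LC3C they were MCM4, ANLN, GEN1, NHLRC2 and DHX57, with r from 0.996 to 0.998. With 2 groups of 3, such values mostly follow the difference between the groups. The pattern of SQSTM1 also holds its high value in EZA replicate 3, 1.62 above the DMSO mean in log2 CPM, against 0.79 and 0.95.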

How the data were processed

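Poly(A) RNA of 3 DMSO and 3 EZA libraries was sequenced without strand information, per the labels. FastQC, HISAT2, featureCounts, DESeq2 and GRCh38 appear in the submitters' processing notes, which state no options, versions or counting annotation. Per Ensembl gene, the authors deposited counts (whole numbers) and FPKM. Every test used the counts, and levels of different genes were compared by FPKM. Identifiers were matched to GENCODE 44 (58207 of 58735).

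Genes kept by filterByExpr (13503) were scaled by TMM, fitted with edgeR (glmQLFit, robust) and compared by its quasi-likelihood F test, and p-values were adjusted over all of them by Benjamini-Hochberg; standard errors come from the F statistic. CPM use counts in tested genes after TMM scaling. Members and lists were chosen with earlier results of these data known. The genes named are all members, up to 3 called genes per list and direction by adjusted p, and preset ones (WIPI1, the ATG4 proteases, TAX1BP1, KEAP1, NFE2L2, TFEB). Overlapping genes and copies were named from the annotation. Alternatives were other scalings, filters and tools, a replicate block, each library left out, removal of the GC and length trend (lowess, span 0.3), and, chosen after seeing the data, MAP1LC3B summed with MAP1LC3B2. The fit was tested on simulated data with a single dispersion of 0.03 for every gene. It found 89% of simulated 2-fold changes, with 15 false calls among 13320 genes. No simulated library stood apart as EZA replicate 3 does, so how the fit behaves with such a library was not tested. Each library counted as a sample. Libraries of a group differed by more than counting noise (chi-square per degree of freedom 5.10 to 127), which does not show that they were separate cultures. The p-values reflect only the spread among these libraries, which may be technical. Versions were Python 3.11.15, R 4.3.3, DESeq2 1.42.0, limma 3.58.1 and edgeR 4.0.16.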

Additional observations from a re-analysis of the deposited data

How the results depend on the processing

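MAP1LC3C was called lower in all 18 alternatives, at -1.56 to -1.41, and no member changed sign in any of them. The alternative that summed MAP1LC3B with MAP1LC3B2 left MAP1LC3C counts as they were. The 2392 genes called became 1581 after correction for GC content and length and 5328 with EZA replicate 3 left out too, and ran from 220 to 5289 with 1 library left out. Members called, 5 in the analysis reported, ran from 1 to 8 with 1 library left out and were 7 after that correction and 8 with EZA replicate 3 left out too. Members past the study's threshold, 2 in the analysis reported, were 1 after that correction, with or without EZA replicate 3, with SQSTM1 at 0.93 and 0.63, and 2 with each library left out. Without EZA replicate 3 the higher of these was GABARAPL1 at 1.00, with SQSTM1 at 0.88. Other pathway genes called, 27, ran from 5 to 43 with 1 library left out and were 44 with the trend removed and EZA replicate 3 left out. Beyond the cases in the text, the causes were not tested. Over counts per longest transcript, the MAP1LC3C share of the ATG8 genes was 78.6% in DMSO and 47.3% in EZA, against 85.4% and 58.8%. Deviations of same-numbered libraries from their group means correlated at 0.03, -0.19 and 0.02. With 3 libraries per group and EZA replicate 3 apart from the rest, these values cannot decide whether the numbers pair libraries. With the replicate number as a block 1970 genes were called, 5 of them members, and MAP1LC3C was at -1.48 and SQSTM1 at 1.12. With DESeq2, which called 3089 genes, GABARAPL2 and NBR1 were called as well. Low counts limit MAP1LC3A and GABARAP, and for GABARAP and SQSTM1 the part of the shared exons was not tested.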
